A study of Mus musculus with 2 samples.

Results

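The genes of fatty acid synthesis, desaturation and oxidation were followed in uterine epithelium of pregnant mice labelled Stat3 knockout and of control mice. The group holds 41 genes chosen by name for their roles in fatty acid metabolism, out of 12393 genes that the array named through a probe set of 1 gene. Of the 41, 39 had such a probe set and 31 were measured, meaning that the signal passed a floor of 14.0 on at least 1 array. Acaca, Fads3, Ehhadh, Ppara, Ppard, Pparg, Cd36 and Fabp4 were under the floor on both arrays and have no ratio. Acsl1 and Acsl3 had no probe set of 1 gene, so their expression was not read here.

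There were 2 groups, each with 1 Affymetrix array (Mouse Genome 430A 2.0), on which sets of short probes read the labelled RNA. The first was labelled Stat3 knockout and the second control, and both came from epithelial cells on day 4 of pregnancy with no treatment. Both samples carry the same title, which calls the mice Stat3 flox control, also for the array labelled knockout, so the groups rest on the genotype and description labels. Flox means that Stat3 is flanked by sites for a recombinase, while the labels give neither the recombinase and its promoter nor strain or age. Each array read RNA pooled from n = 3, which the design text does not define further. Epithelium had been freed from cut uterine horns with trypsin and by squeezing, and no cell sort was named. One protocol text names human endometrial stromal cells as the RNA source, against the mouse epithelium given in every other label. Values are MAS5 signals, a background-corrected brightness on a linear scale, and ratios are given as log2 of knockout over control. With 1 array per group nothing has a replicate check, so no test was made and no p-value is given.

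Fatty acids are built in the cytosol from acetyl-CoA, which ATP citrate lyase releases from citrate, and the chains are then lengthened and desaturated at the endoplasmic reticulum. The sterol regulatory element binding proteins (SREBPs) are known to switch on many genes of synthesis and desaturation. Oxidation runs the other way: acyl chains are tied to coenzyme A, pass into mitochondria through the carnitine shuttle and are shortened by repeated beta-oxidation, with peroxisomes handling very long and branched chains. The PPAR nuclear receptors, which bind fatty acids, are known to raise genes of uptake and oxidation, and in the mouse uterus PPAR delta is known from the stroma around the implanting embryo.

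Stat3 was lower in the knockout array, with signals of 186 in the knockout and 582 in the control for the probe set used and of 160.0 and 430.0 for another. Whether these probe sets lie in the deleted part was not determined here. The median signal was 30.7 on the knockout array and 32.1 on the control array, and the median log2 ratio of the 8304 measured genes was 0.05. Log2 ratios of 2 probe sets of the same gene differed with an SD of 0.34 per probe set over 3237 genes, which is the only error measured here and covers neither animals nor arrays. The epithelial label was checked against its markers: Krt8 had signals of 4289 in the knockout and 4220 in the control, Krt18 4202 and 3180, and Krt19 3329 and 2884. The other markers were not uniform: Cldn4 (776 in the knockout, 371 in the control) and Ehf (835 and 355) were past 2-fold higher, while Elf3 had 432 and 842, Epcam 2335 and 3003, and the cadherin gene Cdh1 2708 and 2275. Summed signals of the 9 epithelial markers on the array were 22245 in the knockout and 20481 in the control.

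Markers of other cells were also read, since uptake genes such as Cd36 and Fabp4 are abundant in fat and vessels. Of 9 adipocyte markers, 6 were on the array, and Adipoq, Lep, Retn and Cidec were under the floor on both arrays. The measured ones, Lipe and Thrsp, brought the sums to 3909 in the knockout and 1144 in the control, nearly all of it Thrsp. Of 10 endothelial markers, 4 were measured and none differed by 2-fold, with sums of 152 in the knockout and 130.1 in the control. Of 11 macrophage markers, 8 were measured, 7 of them with a ratio above 0, against 53.4% of all measured genes. Their median log2 ratio was 0.71. Their sums were 2806 in the knockout and 1735 in the control, most of it Cd14 (2101 and 1262). Of 12 markers of stroma and muscle, 8 were measured, with a median of 0.31 and sums of 3621 in the knockout and 2680 in the control. The part of these cells in the ratios below was not tested, and in RNA from many cells fewer cells of a type and less RNA per cell cannot be told apart.

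Of the 31 measured genes, 28 (90.3%) lay within 2-fold, against 82.7% of all measured genes. In the knockout, Lpin1 was higher by 2-fold or more, and Fasn and Elovl6 were lower by as much. Over all measured genes, 7.37% passed this limit upwards, 9.92% downwards and 17.3% in either direction, so the members did not pass it more often than genes at large. Acsl4 lay just inside the limit and Fabp5 close to it, and both had another probe set outside it. With the arrays centred on their median, with quantile normalization or with the mean of all probe sets, Acsl4 passed the limit (log2 ratios of 1.06, 1.01 and 1.21). At 1.5-fold, 2 members were higher (background 19.4%) and 4 lower (background 18.6%), where 37.9% of all genes passed in either direction. At 3-fold, only Lpin1 was higher (background 1.72%) and only Elovl6 lower (background 4.83%), where 6.55% of all genes passed in either direction.

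The promoters of the 3 genes past 2-fold are shown because they are the members with the largest differences, together with that of Hadhb, which shares its promoter with Hadha. RefSeq promoter windows (GRCm38.p6) of 250 bases before and 50 from the start site were found for 34 of the 41 members, 39 windows in all. Capitals mark matches, on either strand, to CCAAT (bound by NF-Y) or to TTCNNNGAA (the STAT palindrome). The windows are Fasn at chr11:120824498-120824797 on the minus strand, Elovl6 at chr3:129532136-129532435 on the plus strand, Lpin1 at chr12:16610917-16611216 on the minus strand and Hadhb at chr5:30155003-30155302 on the plus strand, each printed 5′ to 3′ along its gene.
Fasn: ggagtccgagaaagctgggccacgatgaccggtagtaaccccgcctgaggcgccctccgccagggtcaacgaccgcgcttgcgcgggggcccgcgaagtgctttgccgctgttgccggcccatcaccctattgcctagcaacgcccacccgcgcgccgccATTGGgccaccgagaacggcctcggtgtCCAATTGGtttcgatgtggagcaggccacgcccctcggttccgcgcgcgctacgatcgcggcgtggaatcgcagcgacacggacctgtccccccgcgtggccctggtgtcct
Elovl6: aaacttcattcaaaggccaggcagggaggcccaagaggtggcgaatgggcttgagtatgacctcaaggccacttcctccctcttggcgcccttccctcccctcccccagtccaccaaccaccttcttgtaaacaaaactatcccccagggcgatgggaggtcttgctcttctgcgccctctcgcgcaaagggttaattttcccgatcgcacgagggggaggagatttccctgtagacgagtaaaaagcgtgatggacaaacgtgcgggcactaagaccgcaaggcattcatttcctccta
Lpin1: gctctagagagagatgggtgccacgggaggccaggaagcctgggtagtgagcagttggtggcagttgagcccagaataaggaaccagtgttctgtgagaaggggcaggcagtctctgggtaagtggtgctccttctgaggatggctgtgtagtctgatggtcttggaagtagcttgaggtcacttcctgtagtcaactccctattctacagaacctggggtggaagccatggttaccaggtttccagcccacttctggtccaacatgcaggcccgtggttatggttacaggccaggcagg
Hadhb: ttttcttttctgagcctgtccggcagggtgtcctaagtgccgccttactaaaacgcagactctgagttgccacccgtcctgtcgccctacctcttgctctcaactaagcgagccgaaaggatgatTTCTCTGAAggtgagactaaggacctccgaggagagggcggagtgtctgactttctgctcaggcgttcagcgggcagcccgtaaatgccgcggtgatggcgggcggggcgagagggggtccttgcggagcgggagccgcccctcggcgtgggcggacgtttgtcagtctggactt

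The Fasn window held 3 CCAAT matches, of which 2 overlap as a palindrome, at positions -90, -62 and -59 from the start site. CCAAT was found in 19 of 39 member windows (48.7%) and in 37.4% of all 32851 windows. TTCNNNGAA was found in 3 member windows (7.69%), those of Cpt2, Hadha and Hadhb, and in 8.30% of all windows. The Hadha and Hadhb windows run in opposite directions and share 228 bases, so their match is the same one, at -156 from the Hadha start and -125 from the Hadhb start. The sterol element core TCACNCCAC was found in the windows of Acsl1 and Ehhadh (5.13% of member windows, 1.24% of all), and the E-box CACGTG in those of Elovl5 and Plin2 (5.13%, and 7.15% of all). The direct repeat of AGGTCA with 1 base between, a PPAR site, was found in no member window and in 0.0396% of all. No match overlapped a match of another motif. These are matches of letters only; Elovl6 and Lpin1 had none of the 5 motifs in their windows.

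**Figure D1:**
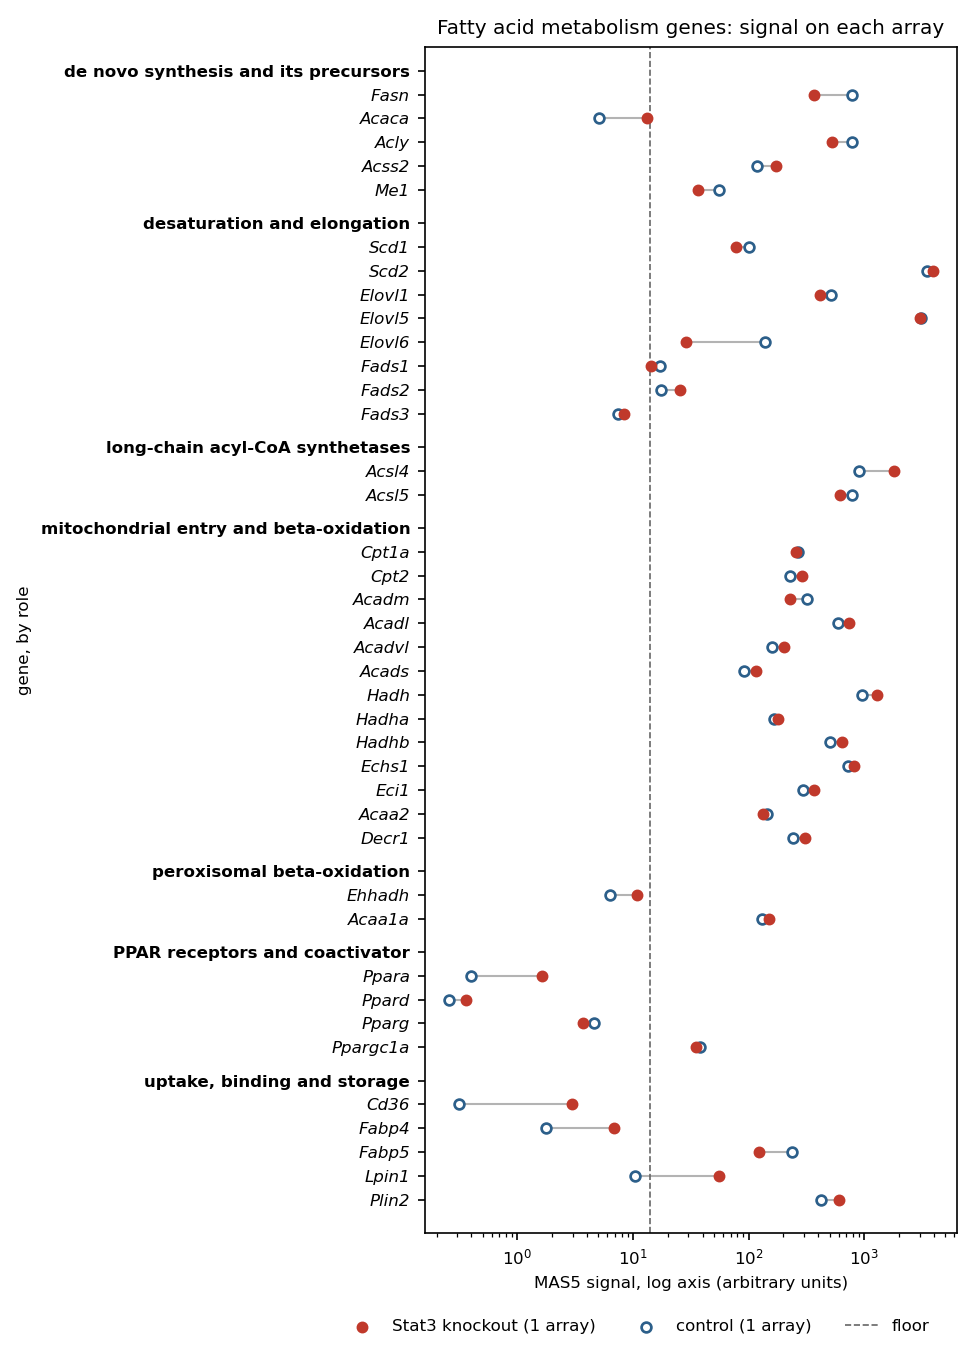
MAS5 signal of each of the 39 genes with a probe set (log axis, arbitrary units) on the Stat3 knockout array (filled red points) and the control array (open blue points), by role, with 1 array per group; the dashed line is the floor of 14.0. The widest gaps to the right of the floor are those of Elovl6 (28.9 in the knockout, 139 in the control) and Fasn (366 and 778), and Lpin1 crosses the floor (55.5 and 10.4); gaps left of the floor have no ratio.

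Of 4 measured genes that supply and build new fatty acids, 3 had a ratio below 0 and 1 of these, Fasn, passed the limit. Over all measured genes, 46.6% were below 0 and 9.92% were at least 2-fold lower. Fasn, the multifunctional synthase that assembles palmitate, had a signal of 366 in the knockout and 778 in the control, or 2.13-fold lower (log2 ratio -1.09). It has a single probe set, so no second reading exists. Acly, which encodes ATP citrate lyase, had 531 in the knockout and 778 in the control (log2 ratio -0.55), and its other measured probe sets had -0.61 and -0.32. Me1, the cytosolic malic enzyme that yields NADPH for synthesis, had 36.3 and 55.8 (-0.62), and a second probe set had 29.0 in the knockout and 61.0 in the control, past the 2-fold limit at -1.07. Acss2, which makes acetyl-CoA from acetate instead of citrate, differed in the other direction, with 171 in the knockout and 118 in the control (0.53, and 0.33 in its second probe set). Acaca, the acetyl-CoA carboxylase that makes malonyl-CoA, had 13.1 and 5.12, both under the floor. The 4 measured genes had a median log2 ratio of -0.59.

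Among the measured elongases of the group, Elovl6 had the lowest ratio. It lengthens palmitate to stearate and had a signal of 28.9 in the knockout and 139 in the control, which left 20.8% of the control signal (4.80-fold lower, log2 ratio -2.26). A second probe set had 16.9 and 69.9, or 4.14-fold lower (-2.05). Of all measured genes, 2.40% had a lower ratio than Elovl6. Elovl5, which lengthens polyunsaturated chains, had 3010 in the knockout and 3112 in the control (-0.05), and Elovl1, an elongase of very long chains, had 412 and 512 (-0.31). Every other measured probe set of Elovl5 and Elovl1 was between -0.45 and -0.10. Elovl7, an elongase outside the members described below, was at least 3.20-fold lower, with its knockout signal under the floor.

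The desaturases differed little and not in 1 direction. Scd1 and Scd2 place the first double bond in saturated chains. Scd2 had a signal of 3910 in the knockout and 3453 in the control (log2 ratio 0.18), while its dimmer probe sets had 418 and 205 (1.03) and 41.4 and 22.6 (0.87). The probe sets of Scd2 thus gave ratios on both sides of the 2-fold limit. Scd1 had 77.4 in the knockout and 99.9 in the control (-0.37). Fads1 and Fads2, the desaturases of polyunsaturated chains, were close to the floor, with 14.4 and 17.3 (-0.26) for Fads1 and 25.3 and 17.5 (0.53) for Fads2. For a second Fads2 probe set only the knockout array passed the floor, with a bound of 0.05.

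The measured acyl-CoA synthetases, which activate long chains for either use, went opposite ways. Acsl4, which prefers arachidonate, the precursor of prostaglandins, had a signal of 1800 in the knockout and 904 in the control, or 1.99-fold higher (log2 ratio 0.99). Its other probe sets were past the limit, with 638 and 225 (2.83-fold higher) and 235 and 107 (2.19-fold higher). Acsl5 had 620 in the knockout and 784 in the control (-0.34).

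**Figure D2:**
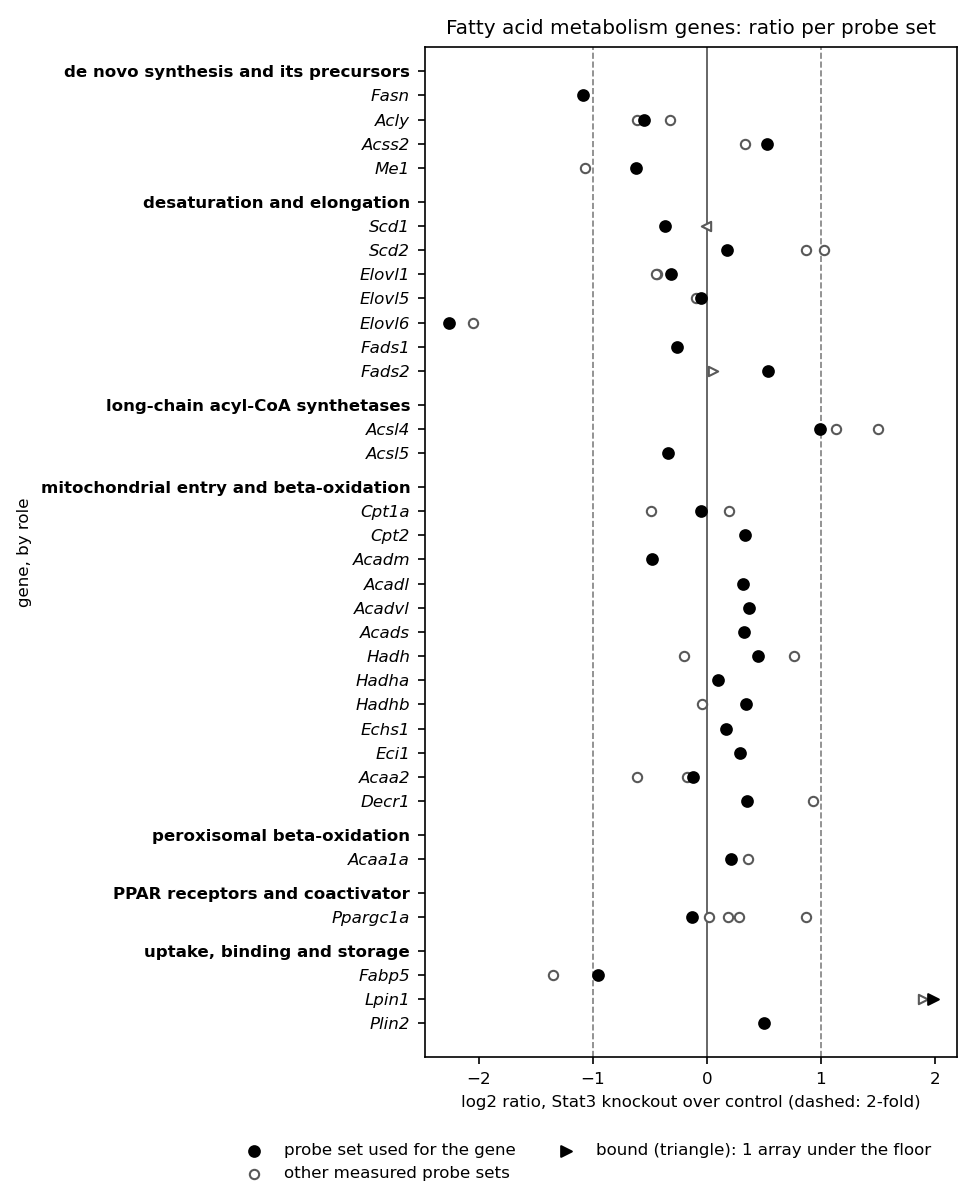
Log2 ratio of Stat3 knockout over control for every measured probe set of the 31 measured genes, by role; filled points are the probe set used for the gene, open points its other probe sets, triangles bounds with 1 array under the floor, and dashed lines 2-fold. Both Elovl6 probe sets lie left of -1 and all 3 of Acsl4 lie at 0.99 or higher, while the oxidation genes sit between the dashed lines.

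Mitochondrial oxidation genes were all measured and all within 2-fold, 10 of 13 with a ratio above 0. Over all measured genes, 82.7% were within 2-fold and 53.4% had a ratio above 0. The entry enzyme Cpt1a, which controls the transfer of acyl chains to carnitine, had a signal of 257 in the knockout and 266 in the control (log2 ratio -0.05), with -0.49 and 0.19 in its other probe sets. Cpt2, which hands the chains back to coenzyme A inside the mitochondrion, had 290 and 229 (0.34). The acyl-CoA dehydrogenases start each round of shortening. Acadl, Acadvl and Acads, for long, very long and short chains, had log2 ratios of 0.32, 0.37 and 0.32, with signals of 736 in the knockout and 590.0 in the control for Acadl. The medium-chain dehydrogenase Acadm had the lowest ratio of the 13, with 229 in the knockout and 320 in the control (-0.48).

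Genes of the following steps differed by little. Hadha and Hadhb encode the subunits of the trifunctional protein, which carries out the later steps on long chains. Hadha had 178 in the knockout and 167 in the control (0.10), and Hadhb had 638 and 503 (0.35), with -0.04 in its second probe set. Hadh, the dehydrogenase of shorter hydroxyacyl chains, had 1295 and 951 (0.44), the highest of the 13, and 0.76 and -0.20 in other probe sets. The hydratase gene Echs1 had 0.17, and the thiolase gene Acaa2 had -0.12 in the probe set used and -0.62 and -0.18 in the others. Eci1 and Decr1, which handle double bonds of unsaturated chains, had 0.29 and 0.35, and a dimmer Decr1 probe set had 62.6 in the knockout and 32.8 in the control (0.93). In the peroxisome, the thiolase gene Acaa1a had 151 and 131 (0.21), and Ehhadh, the bifunctional enzyme, was under the floor with 10.9 and 6.29.

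Set side by side, 8 of 11 measured synthesis and desaturation genes had a ratio below 0 and 11 of 14 measured oxidation genes one above 0. Over all measured genes 46.6% were below 0 and 53.4% above. The median log2 ratio was -0.31 for synthesis and desaturation and 0.30 for oxidation, a difference of -0.62, against 0.05 for all genes. Synthesis genes spread from -2.26 to 0.53 and oxidation genes from -0.48 to 0.44, and 5 of the 11 synthesis genes fell inside the oxidation range, so the groups overlapped. Oxidation genes had 0 members past 2-fold in either direction, and synthesis genes had 2 lower and 0 higher. Genes of a pathway share 1 RNA pool per array and are not replicates, so this contrast is a description of these arrays. With de novo synthesis genes alone the difference of medians was -0.89, and under the 12 alternatives it ranged from -0.89 to -0.55. Related genes outside the members, described below, had medians of -0.18 (other synthesis), -0.06 (other mitochondrial oxidation) and 0.54 (other peroxisomal oxidation). The median of other synthesis genes had no stable sign. It ranged from -0.71 to 0.25 under the alternatives and was 0.45 without the genes that have a bound.

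**Figure D3:**
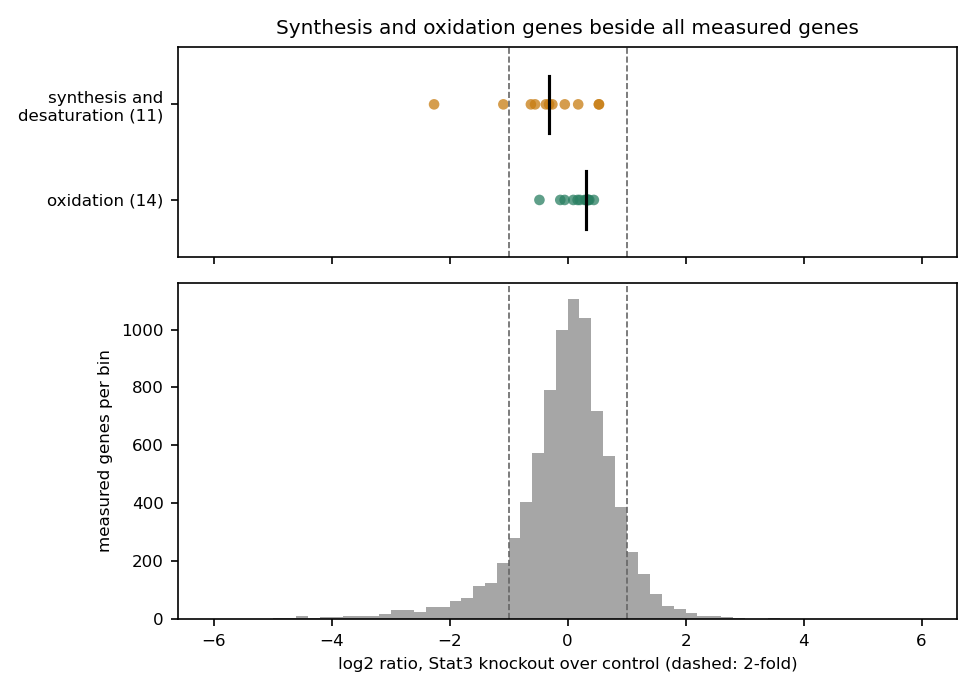
Top, log2 ratio of Stat3 knockout over control for the 11 measured synthesis and desaturation genes and the 14 measured oxidation genes (1 point per gene, bars are medians of -0.31 and 0.30); bottom, number of the 8304 measured genes per bin of 0.2. Dashed lines mark 2-fold. The groups overlap, and apart from Elovl6 and Fasn their genes lie within 2-fold.

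Genes of uptake, binding and storage held the largest increase. Lpin1, a phosphatidate phosphatase that makes diacylglycerol and, in mouse liver, also acts with PPAR alpha and PGC-1 alpha, had a signal of 55.5 in the knockout and 10.4 in the control. As the control was under the floor, the gene was at least 3.95-fold higher with that signal set to the floor. With the floor value added to both signals instead, its log2 ratio was 1.51. Its second probe set had 52.4 and 3.47, at least 3.73-fold higher. Plin2, which coats lipid droplets, had 604 in the knockout and 426 in the control (log2 ratio 0.50). Fabp5, the fatty acid binding protein of epithelia, had 123 in the knockout and 238 in the control, or 1.94-fold lower (-0.95), and a second probe set had 35.4 and 90.6, or 2.56-fold lower (-1.35). Cd36, a fatty acid transporter, was under the floor in all 3 probe sets and Fabp4 in all 4.

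The regulators gave little signal. Ppara, Ppard and Pparg, the nuclear receptor genes, had 1 probe set each, with signals of 1.62, 0.362 and 3.69 in the knockout and 0.397, 0.256 and 4.56 in the control, all under the floor. A signal under the floor does not show that the transcript was absent. Ppargc1a, which encodes the coactivator PGC-1 alpha, had 34.9 in the knockout and 38.1 in the control (-0.13), and its 4 other probe sets ranged from 0.02 to 0.87. Over all members, 29 further probe sets were measured, of which 22 had the sign of the probe set used and 7 the other sign; Ppargc1a accounts for 4 of these 7.

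A further 159 genes of the pathway and its neighbours were listed in 12 groups, of which 132 were on the array and 102 measured. The knockout array had 14 of them higher by 2-fold or more and 10 lower by as much, against 7.37% and 9.92% of all measured genes. These shares are also the background for the counts in each list below. Their median log2 ratio was 0.04, that of all genes 0.05.

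Other synthesis genes differed in both directions, with 3 of 12 at least 2-fold higher and 2 lower. Their median was -0.18, and between -0.71 and 0.25 under the alternatives. It was 0.45 without the genes that have a bound. Thrsp, the lipogenic protein Spot 14, had a signal of 3872 in the knockout and 1119 in the control, or 3.46-fold higher, and 2343 and 480.1 in its second probe set (4.88-fold). Thrsp is also abundant in fat, and a part of fat cells in its difference was not tested. Mid1ip1, a relative of Thrsp that activates acetyl-CoA carboxylase, had 1377 in the knockout and 708 in the control (log2 ratio 0.96). Olah, a thioesterase that releases medium chains from the synthase, was 3.56-fold higher (199 in the knockout, 55.9 in the control), and Mlycd, which breaks malonyl-CoA down, was 2.51-fold higher (76.4 and 30.4). Elovl7, with 8.38 in the knockout, under the floor, and 44.9 in the control, was at least 3.20-fold lower. Acss1, the mitochondrial acetyl-CoA synthetase, was 2.20-fold lower (61.2 and 134). The elongation dehydratase gene Hacd3 had 2580 in the knockout and 1336 in the control (0.95), and its other probe sets had 1.20 and 1.26. Of the 12, 5 had a ratio above 0 and 7 below 0, against 53.4% and 46.6% of all measured genes. Among those below 0 were Hsd17b12, with 501 in the knockout and 995 in the control (-0.99), and Hacd2, with 236 and 404 (-0.78).

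Of 7 measured control genes of lipid synthesis, only Srebf2, the SREBP that mainly drives sterol synthesis, passed the limit, with 67.9 in the knockout and 138 in the control (log2 ratio -1.02, and -1.07 in a second probe set). Srebf1, which mainly drives fatty acid synthesis, had 308 in the knockout and 330.2 in the control (-0.10). The protease gene Mbtps1 had 0.39.

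Peroxisomal genes outside the members had a median log2 ratio of 0.54, with 3 of 10 measured genes at least 2-fold higher and 1 lower. Over all measured genes, 7.37% were higher and 9.92% lower by as much. Hacl1 and Phyh, enzymes of alpha-oxidation of branched chains, were 3.16-fold and 2.29-fold higher, with signals of 72.4 in the knockout and 22.9 in the control, and of 546 and 238. Decr2, the peroxisomal dienoyl-CoA reductase, was 2.28-fold higher (log2 ratio 1.19). Pecr, a peroxisomal enoyl-CoA reductase, was 2.20-fold lower (20.5 and 45.1). The transporter gene Abcd3 had 0.30. The thiolase gene Scp2 had 0.17 in the probe set used and 0.62, 0.43 and 1.04 in its others, with a mean of 0.57. Probe sets of a single gene were read here; 2 probe sets that the platform assigns to Acaa1a and Acaa1b together had log2 ratios of 0.54 and 0.73.

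Other mitochondrial oxidation genes had a median of -0.06, with 1 of 18 at least 2-fold higher and 1 lower. Acadsb, a dehydrogenase of branched acyl chains, was 2.39-fold higher (log2 ratio 1.26), and Bdh1, of ketone body metabolism, was 2.20-fold lower (17.1 and 37.6). Oxct1 and Etfa had 0.08 and -0.34.

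Uptake and glycerolipid genes had members past the limit in both directions. Slc27a2, a fatty acid transporter with acyl-CoA synthetase activity, was 5.88-fold higher (244 in the knockout, 41.5 in the control), the highest ratio of the 102, and Slc27a1 was 2.46-fold higher (41.1 and 16.7). Lpl, lipoprotein lipase, was at least 2.41-fold lower, with 13.8 in the knockout, under the floor, and 33.8 in the control. Dgat2, which completes triglyceride synthesis, had 2123 in the knockout and 957 in the control, or 2.22-fold higher, and Gpam, which starts it, 805 and 364 (2.21-fold). The dimmer probe set of Dgat2 was 2.72-fold higher, and that of Gpam had a bound of 0.17. Mogat2, an acyltransferase of monoacylglycerol, was 2.45-fold lower (47.3 and 116). Glycerolipid genes as a list had 2 of 11 higher, 1 lower and a median of -0.14. Hilpda, a droplet protein that restrains lipolysis, was 3.71-fold higher (465 in the knockout, 125 in the control), the only one of 7 measured droplet and lipolysis genes past the limit (median 0.22).

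Among 9 measured PPAR partners and targets, 2 were at least 2-fold higher and 2 lower (median 0.02). Vldlr, the very low density lipoprotein receptor, was 3.37-fold higher (880 in the knockout, 261 in the control), and its 3 other probe sets were all past the limit in that direction. Txnip, which restrains glucose uptake, was 2.54-fold higher (1046 and 411). Pprc1 and Ppargc1b, relatives of Ppargc1a, were 5.68-fold lower (27.2 in the knockout, 155 in the control) and 2.90-fold lower (14.4 and 41.8).

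Several of these calls depended on the setting. With the floor at the 60th percentile, Hacl1 had a log2 ratio of 0.17, Mlycd 0.25, Acadsb 0.61 and Mogat2 -0.85, all within 2-fold. With the floor value added to both signals, Decr2 had 0.83, Slc27a1 0.84, Lpl -0.78, Pecr -0.78, Bdh1 -0.73, Ppargc1b -0.97 and Srebf2 -0.89. Srebf2 had -0.96 with the arrays centred on their median, and Gpam 0.66 as the mean of its probe sets.

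**Figure D4:**
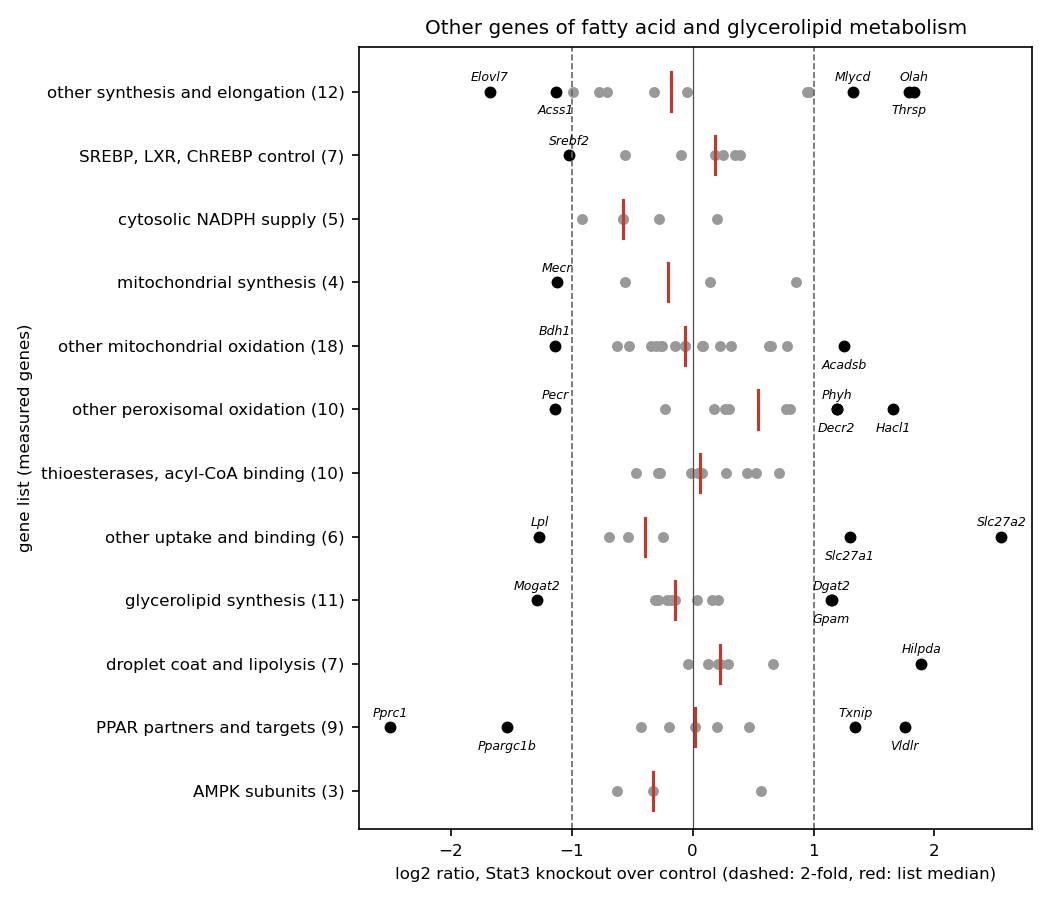
Log2 ratio of Stat3 knockout over control for 102 measured genes in 12 lists of related metabolism (1 point per gene, number measured in brackets; red bars are list medians, dashed lines 2-fold, genes past 2-fold in black and named). Slc27a2 has the highest ratio (2.56) and Pprc1 the lowest (-2.51), and several lists, the peroxisomal one among them, have genes beyond both dashed lines.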

How the data were processed

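Total RNA of uterine epithelium was read on 2 Affymetrix Mouse Genome 430A 2.0 arrays, 1 Stat3 knockout and 1 control, grouped by the genotype label. The authors deposited 1 linear intensity per probe set; the software, per the submitters' processing notes, was Affymetrix Expression Console 1.1 with MAS5. After trimming 2% of probe sets from both tails, the arrays had the same mean, 150.1: the deposited intensities had been scaled. Detection calls were not used here.

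Of 22626 probe sets that are not controls, 20380 had 1 gene in the platform annotation, which can be old, 691 several and 1555 none. Current symbols came from a RefSeq table (GRCm38.p6) by gene ID, which held 99.9% of those with 1 gene. Each gene was read by its brightest probe set (mean of both log2 signals). Signals under the 40th percentile (14.0) were set to it; a gene under it on 1 array has a bound, and under it on both no ratio. Calculations used Python 3.11.15 with numpy 2.4.6 and pandas 2.3.3, and were tested on simulated data. The members, lists and motifs were chosen with earlier results of these data known. The rule for naming took every member. From each further list it took up to 4 genes past 2-fold and up to 2 of the brightest others. Acss1, Hsd17b12, Hacd2, Pgd, Idh1, Pgls and the epithelial markers other than keratins were added after their values were seen. The rule for promoters would have printed windows of members past 2-fold with a sterol or PPAR match; none had one, so all 3 were printed, and the TTCNNNGAA search and the Hadhb window were added. The number of arrays limits the precision. Alternatives changed the scaling, the floor, the probe set, the fold limit or the members compared.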

Additional observations from a re-analysis of the deposited data

How the results depend on the processing

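Of the 31 measured genes, 28 kept the sign of their log2 ratio under all alternatives that gave a value. Elovl5, Cpt1a and Ppargc1a, all near 0, did not, and none of Fasn, Elovl6 or Lpin1 changed sign. All alternatives reprocess the same 2 arrays. Several of them cannot change a gene such as Fasn, which lies far over the floor and has 1 probe set. The median log2 ratio of synthesis and desaturation genes ranged from -0.59 to -0.25 and that of oxidation genes from 0.25 to 0.37. Oxidation genes had 0 past 2-fold under every alternative, and 0 past 1.5-fold with the probe sets used. Other probe sets of Hadh (0.76), Decr1 (0.93) and Acaa2 (-0.62) were past 1.5-fold. The count of members at least 2-fold higher was 1; it became 2 with arrays centred on the median log2 signal, with quantile normalization, with the floor at the 20th percentile, with the mean of all probe sets and at a limit of 1.5-fold, 5 with no floor and 0 with the floor at the 60th percentile, which Lpin1 did not pass on either array. The count of members lower was 2; it became 4 with shared probe sets left out (Me1 and Fabp5 added) and at 1.5-fold, and 1 at 3-fold. Synthesis genes had 1 higher with the floor at the 20th percentile and with no floor, and 1 lower at 3-fold but 3 with shared probe sets left out and at 1.5-fold (Me1 added). Of the other pathway genes, 14 were higher; this became 9 with the floor at the 60th percentile, 24 with no floor, 6 at 3-fold and 24 at 1.5-fold. The 10 lower ones became 3 with the floor at the 60th percentile, 18 with no floor, 3 with the floor value added, 2 at 3-fold and 17 at 1.5-fold. List medians changed sign under at least 1 alternative for other synthesis genes (-0.71 to 0.25), SREBP control (-0.16 to 0.30), mitochondrial synthesis (-0.56 to 0.14), transport (-0.45 to 0.84) and PPAR partners (-0.04 to 0.30). Fewer genes pass a higher floor by construction; other causes were not tested. Low signals limit Fads1, Fads2, Ppargc1a, the PPAR genes and the sizes of the Elovl6 and Lpin1 differences. Elovl6 had a log2 ratio of -1.11 with the floor at the 60th percentile. Lpin1 had 1.51 with the floor value added to both signals. No paired analysis was possible because each group has 1 array.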

Other observations

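Of 5 measured genes listed for NADPH supply and the pentose phosphate pathway, 4 had a ratio below 0 and none was past 2-fold. Their median log2 ratio was -0.58. Over all measured genes, 46.6% were below 0 and 82.7% were within 2-fold. Pgd, of the pentose phosphate pathway, had 658 in the knockout and 982 in the control (-0.58), and -0.88, -1.62 and -0.76 in its other probe sets, 1 of them past the limit at 3.08-fold lower. The isocitrate dehydrogenase gene Idh1 had 130.0 and 245 (-0.92), and Pgls 236 and 352 (-0.58). Tkt and Taldo1, of the pentose phosphate pathway, had signals of 2555 in the knockout and 3093 in the control (log2 ratio -0.28) and of 1003 and 872 (0.20). Mitochondrial fatty acid synthesis, which makes the precursor of lipoic acid, had 1 of 4 measured genes at least 2-fold lower: Mecr, its last enzyme, with 43.9 in the knockout and 95.7 in the control (2.18-fold lower), and -0.85 in its second probe set. Mecr was within 2-fold with the floor at the 60th percentile (-0.57), with the floor value added (-0.92) and as the mean of its probe sets (-0.99). Ndufab1, the acyl carrier protein, had 660 and 972 (-0.56), and Cbr4 had 611 and 338 (0.85).

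Of 10 measured thioesterase and acyl-CoA binding genes none was past 2-fold (median 0.06). Acot7 had 6747 in the knockout and 4703 in the control (0.52), and Dbi, which encodes acyl-CoA binding protein, 1553 and 1891 (-0.28). Among 3 measured subunits of AMPK, the kinase that inhibits acetyl-CoA carboxylase, Prkab1 had -0.62 and Prkag2 0.57.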
